A study of Sus scrofa domesticus with 8 samples.

Results

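LHCGR encodes the receptor for luteinizing hormone and chorionic gonadotropin, and it was followed here through 144 h of culture of porcine ovarian granulosa cells. The platform annotation gave LHCGR to 1 feature (a probe set that reports 1 value per array) of 27558 features on the array, which named 10707 genes in all. The gene was selected on its measured log2 levels over time, kept at 48 h and lost by 96 h, so its own levels and differences are given as a description and carry no test.

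The cells were collected after slaughter from ovaries of crossbred Landrace gilts, 43 in number and at a median of 170 days of age. The study had 4 groups. The 0 h group was taken before culture, and the 48 h, 96 h and 144 h groups were taken during culture. All cultured cells shared one medium, DMEM with 2% fetal bovine serum, glutamine and antibiotics, at 37 °C and 5% CO2, and the labels name no gonadotropin among its contents. Each group held 2 arrays of total RNA, 8 in all. Whether the arrays of a group are separate animals, pools or culture dishes is not given in the labels, so a p-value here reflects no more than array-to-array spread, part or all of which may be technical.

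LHCGR is a receptor of the glycoprotein hormone family, which it shares with the receptors for follicle stimulating hormone and thyrotropin. When it binds its hormone it couples mainly to the stimulatory G protein, which activates adenylyl cyclase, raises cyclic AMP and turns on protein kinase A. Granulosa cells gain the receptor late in follicle growth under follicle stimulating hormone, and through it they answer the LH surge with ovulation and a shift to progesterone synthesis. Theca cells and luteal cells carry the same receptor. In the ovary the LHCGR mRNA is known to be lost after the surge, when the enzyme mevalonate kinase binds it and its decay quickens.

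The 8 arrays were alike in scale, with an array median between 4.52 and 4.63 and quartiles of 3.13 to 3.25 and 6.56 to 6.67 in log2 intensity. Arrays of one time correlated across features at 0.985 to 0.997, lowest at 144 h. The 96 h arrays stood somewhat apart: of 40 ribosomal protein genes, limma called 10 up and 7 down from 48 h to 96 h, then 6 up and 11 down from 96 h to 144 h. Between 144 h and 48 h 0 were called (1 at an unadjusted p below 0.05). Of all features 29.4%, 22.2% and 8.64% were called in these 3 comparisons, and their median absolute difference was 0.266, 0.230 and 0.159. The part of this in the differences at 96 h that were reversed at 144 h was not tested. The granulosa origin was checked on 12 measured markers, whose mean levels at 0 h ran from 3.40 for HSD3B1, near the lower quartile, to 11.75 for GJA1 in log2 intensity. FST, HSD17B1, INHBA, NR5A1, NR5A2 and SERPINE2 were, like GJA1, above the upper quartile, whereas AMH (5.53), ESR2 (4.79) and WT1 (6.17) lay between the median and the upper quartile and AMHR2 (6.61) near the latter. FSHR, CYP19A1, FOXL2, INHA, INHBB and GATA4 lacked a named feature and are not analysed here. INHBA, GJA1, ESR2 and WT1 were named after their values were seen.

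LHCGR stood at 10.38 and 10.40 in log2 intensity on the 0 h arrays and at 10.27 and 10.21 on the 48 h arrays. It stood at 5.39 and 4.89 at 96 h and at 5.89 and 4.99 at 144 h. The 4 arrays of the first 48 h were thus all high and close together, and the 4 later arrays were all low, with no overlap between these sets. The means were 10.39 ± 0.012 (SD, n = 2) at 0 h, 10.24 ± 0.038 (SD, n = 2) at 48 h, 5.14 ± 0.36 (SD, n = 2) at 96 h and 5.44 ± 0.64 (SD, n = 2) at 144 h. In order of level the times ran 0 h, 48 h, 144 h and 96 h.

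The difference of 48 h from 0 h was -0.15 ± 0.28 (SE of the model over all 8 arrays, the same for every LHCGR difference). This is smaller than that SE, which the wider spread at 96 h and 144 h enlarges. The 48 h arrays both lay below the 0 h arrays, and the difference exceeded the SD at either time. With so few arrays per time, neither point can tell a small fall from array-to-array spread. LHCGR was also selected as kept at 48 h, so no conclusion is drawn from this difference. The difference of 96 h from 48 h was -5.10 on the log2 scale, a 34.3-fold lower intensity. The difference of 144 h from 96 h was 0.30, and the arrays of these times overlapped. Set against 48 h, the 144 h level was lower by 27.8-fold, at a log2 difference of -4.80. In the order of levels, the arrays of 144 h and 96 h overlapped, and those of 0 h and 48 h, and of 48 h and 144 h, did not. The direction between 96 h and 144 h rested on 1 array: without replicate 1 of 144 h the difference was -0.15.

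**Figure D1:**
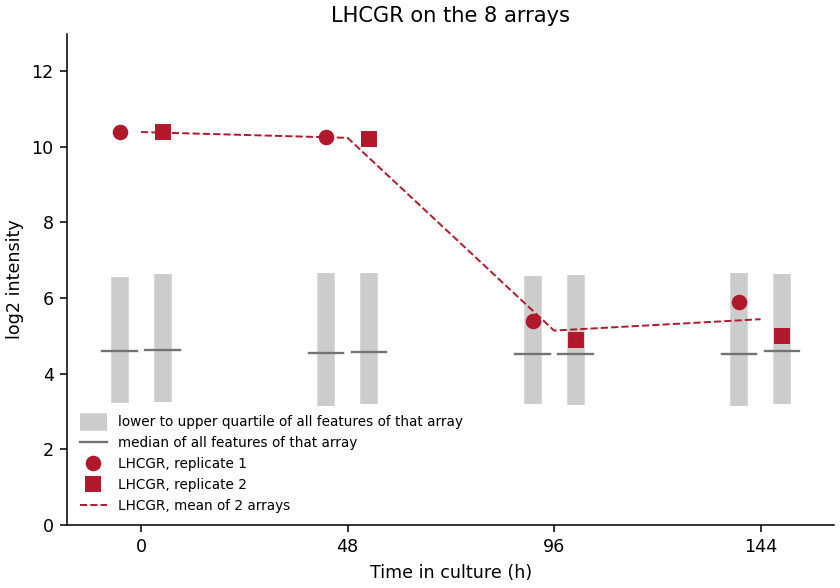
LHCGR log2 intensity on each of the 8 arrays (red points, 2 per time) against time in culture in hours, with the mean of 2 arrays as a dashed line and, for each array, the lower to upper quartile of all its features (grey bar) and their median (grey line). The points at 0 h and 48 h lie between 10.21 and 10.40, above the upper quartile of their arrays, and those at 96 h and 144 h lie between 4.89 and 5.89, between the median and the upper quartile.

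On the 0 h and 48 h arrays LHCGR lay above the upper quartile of all features, and on the 96 h and 144 h arrays it lay between the median and the upper quartile. The later level was therefore still above the middle of the array, and no detection call was available to say whether it was signal or background. The 2 arrays of a late time also differed more for LHCGR than for most features. The gap between them was 0.504 at 96 h, larger than for 98.9% of features, whose median gap was 0.088. At 144 h the gap was 0.908, larger than for 97.3% of features, against a median gap of 0.218. In these bulk samples, fewer LHCGR-bearing cells and less LHCGR RNA per cell cannot be told apart.

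Among 10707 named genes, the LHCGR difference of 96 h from 48 h was second from the largest fall. GSTA1, a glutathione transferase of the alpha class, came first at -6.53, and LIPH, a phospholipase, came next at -4.35. DDX60, an interferon-induced helicase, followed LOC100526118 (-4.04) at -3.98, as did FST, which encodes the activin-binding protein follistatin, also at -3.98. LIPH and DDX60 were named after their values were seen. Between 48 h and 0 h LHCGR was only at rank 3883 of these genes. LIPH was low before culture (2.50 and 2.32) and high only at 48 h (7.29 and 7.07), and DDX60 returned to 6.81 and 7.48 at 144 h, so these large differences did not share the LHCGR pattern over the other times.

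The genes whose level over the 8 arrays was most like that of LHCGR were found by Pearson r among 898 named genes whose time means spanned at least 2 log2 units. The arrays fall into a high and a low set for LHCGR, and arrays of one time share their time, so r here mainly records the step between 48 h and 96 h and is given as a measure of likeness with no test. Of these genes 35 had r of at least 0.9 and 14 of at least 0.95, while 61 had r of -0.9 or below. The 10 most like it had r from 0.961 to 0.997.

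NCKAP5 was nearest, with r = 0.997. It stood at 6.97 and 6.91 in log2 intensity at 0 h, 6.91 and 6.98 at 48 h, 4.07 and 4.11 at 96 h and 4.32 and 4.06 at 144 h. As for LHCGR, the first 4 arrays were high and the last 4 low, with a 7.25-fold lower intensity at 96 h than at 48 h.

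LOC100526118, at r = 0.988, is a protein-coding gene that the RefSeq gene table of Sscrofa11.1 places between GSTA1 and GSTA4, in the region of the alpha-class glutathione transferases. It stood at 7.15 and 6.95 at 0 h, 6.67 and 6.22 at 48 h, 2.35 and 2.48 at 96 h and 2.30 and 2.32 at 144 h. GSTA1 itself, at r = 0.976, stood at 11.69 and 11.68 at 0 h, 10.69 and 10.70 at 48 h, 4.02 and 4.30 at 96 h and 2.84 and 3.76 at 144 h. A further feature of GSTA1 gave a 96 h difference of -6.75. Both genes were already somewhat lower at 48 h than at 0 h (-0.60 for LOC100526118 and -0.99 for GSTA1), unlike LHCGR, and close relatives of a gene family may share probe signal, which was not tested.

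MMP16, a membrane-bound matrix metalloproteinase, stood at 8.83 and 8.74 at 0 h, 8.35 and 8.35 at 48 h, 6.47 and 6.55 at 96 h and 6.89 and 6.63 at 144 h. SEMA6A, a transmembrane semaphorin, stood at 7.16 and 7.29, then 7.72 and 7.68, then 4.96 and 4.91, and last 5.32 and 5.03. C7, a component of the complement attack complex, stood at 6.42 and 6.54, then 6.30 and 6.22, then 2.95 and 2.86, and last 3.23 and 3.97. Each of the 3 was high to 48 h and low after it, and SEMA6A was higher at 48 h than at 0 h. PDK4, a kinase that restrains entry of pyruvate into the citric acid cycle, stood at 8.07 and 8.33, then 6.98 and 6.88, then 3.43 and 3.24, and last 4.48 and 3.92. It was lower at each of the first 3 times than at the one before, and partly back at 144 h.

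The remaining members were ANO3, CA10 and MFAP3L. ANO3, of the anoctamin family, was higher at 48 h (6.15 and 6.11) than at 0 h (5.01 and 5.20) and stood at 2.51 to 2.75 on the 4 later arrays. CA10, a carbonic anhydrase-related protein, and MFAP3L had smaller steps, with 96 h differences of -1.83 and -1.36. Across the 10 genes the 96 h difference from 48 h ran from -1.36 for MFAP3L to -6.53 for GSTA1.

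**Figure D2:**
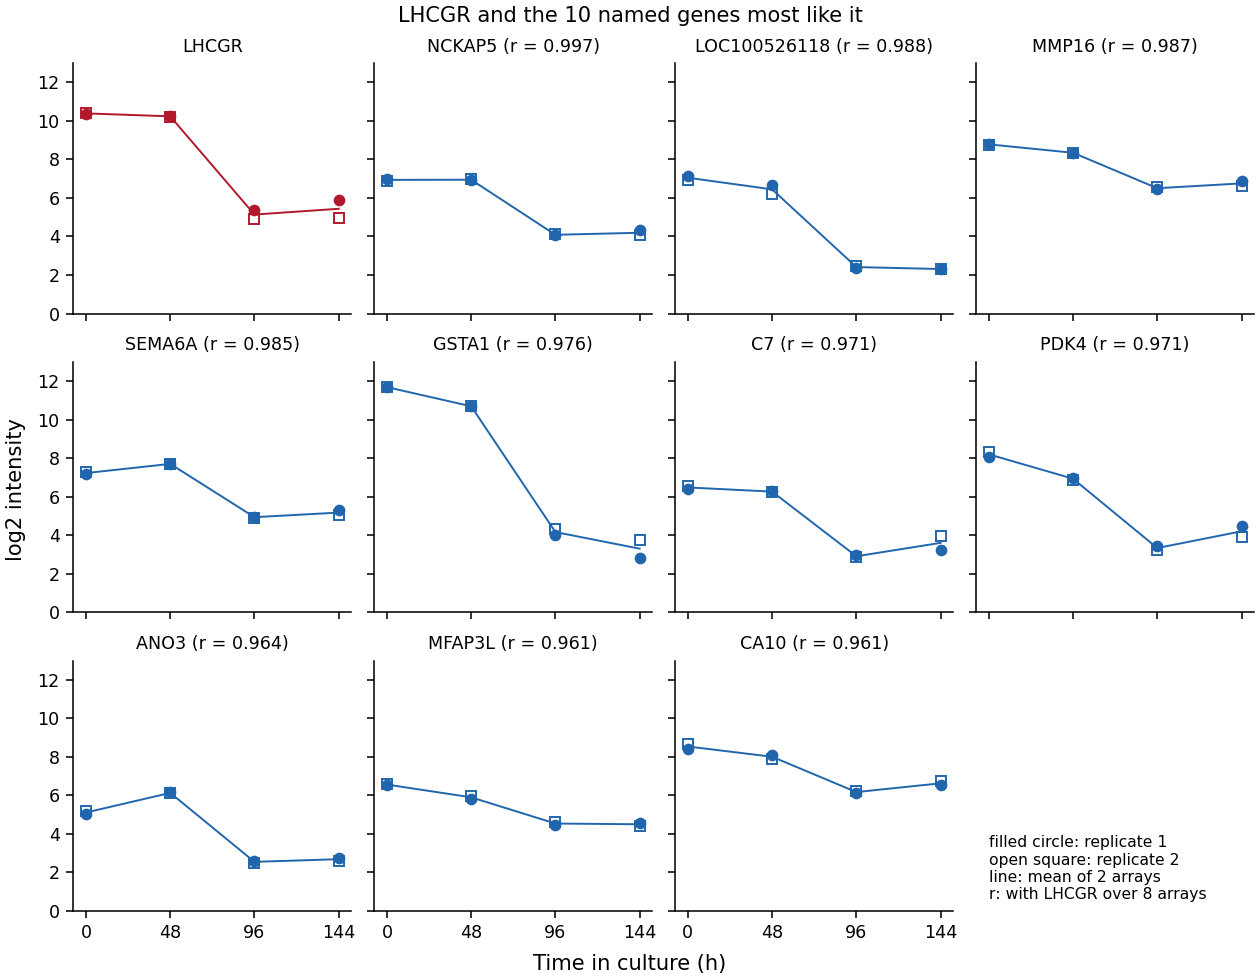
Log2 intensity of LHCGR (red) and of the 10 named genes most like it (blue, with r over the 8 arrays) against time in culture in hours; filled circles are replicate 1, open squares replicate 2 and lines the mean of 2 arrays. Every panel is higher on the 0 h and 48 h arrays than on the 96 h and 144 h arrays, and ANO3 and SEMA6A are higher at 48 h than at 0 h.

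The list depended on the measure. Another measure was the root mean square distance between the log2 differences from 0 h at 48 h, 96 h and 144 h, which also weighs the size of the step. By it LOC100526118 came first at a distance of 0.457, FST second at 0.840 and then PDK4 at 0.877, and 3 of the 10 genes by r were kept. By Spearman rho 1 of the 10 was kept, and with genes spanning at least 1 log2 unit 5 were kept.

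The 5 genes most unlike LHCGR ran the opposite way. LTBP2, which binds latent transforming growth factor complexes to matrix fibrils, stood at 4.10 and 4.21 at 0 h, 5.14 and 5.06 at 48 h, 9.41 and 9.38 at 96 h and 8.56 and 9.10 at 144 h. NTRK3, the neurotrophin-3 receptor, stood at 4.53 and 4.58, then 4.08 and 4.14, then 8.26 and 8.21, and last 7.72 and 7.79. Both were low while LHCGR was high and high while it was low. UNC45B, a myosin chaperone, COL8A1, a collagen chain, and FBLN7, a fibulin, completed the group, with 96 h differences of 3.24, 1.76 and 1.94.

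Other genes were taken from 9 lists of the LH receptor pathway. Besides LHCGR these held 194 gene symbols, 125 of them with a named feature, and a few genes were listed under both an earlier and a current symbol. These genes were no part of the rule that selected LHCGR, but the lists were chosen with earlier results of these data known. A gene was called where the limma test gave an adjusted p below 0.05 over all features of a comparison. Between 0 h and 48 h, while LHCGR was kept, 27 pathway genes rose and 42 fell. That made 55.2% called, against 30.0% of all features and 34.0% of all named genes. Between 48 h and 96 h, when LHCGR was lost, 15 rose and 43 fell, 46.4% against 29.4% and 31.3%. At 144 h against 48 h 10 were higher and 21 lower, 24.8% against 8.64% and 10.4%. Between 96 h and 144 h 23 rose and 10 fell, 26.4% against 22.2% and 23.1%. The comparisons share arrays, so their counts are not independent. The median 96 h difference of a list was lowest for the proteins bound to LHCGR mRNA or its promoter, at -0.46, and the hormones and receptors that act on LHCGR, at -0.42. It was -0.29 for steroid synthesis genes, -0.14 for targets of the LH surge, -0.07 for G proteins and cyclases and -0.06 for the shut-off genes, against 0.0094 for all features. Without replicate 1 of 96 h the 96 h counts were 6 higher and 24 lower, without replicate 1 of 0 h the 48 h count of higher genes was 17, and without replicate 1 of 48 h the 144 h count of higher genes was 4.

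Hormone receptors of the same family and their ligands came first. LGR4, a related receptor for R-spondins, stood at 10.33 and 10.51 in log2 intensity at 0 h, 8.84 and 8.66 at 48 h, 7.30 and 7.36 at 96 h and 7.36 and 6.77 at 144 h. It fell in the first 48 h by 1.67 ± 0.19 (SE, adjusted p = 0.00033), when LHCGR was kept, and by a further 1.42 ± 0.19 (SE, adjusted p = 0.001) to 96 h. LGR6, another R-spondin receptor, lay between 3.92 and 4.37 on all arrays, and RXFP1, the relaxin receptor, between 2.08 and 2.54, below the lower quartile of every array. Neither was called at any time. FSHR, TSHR, LGR5 and RXFP2 lacked a named feature.

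The pituitary glycoprotein hormones share an alpha subunit and differ in their beta subunits, and luteinizing hormone reaches the ovary from the pituitary. CGA, the shared alpha subunit, stood at 2.51 to 2.92 on all arrays and LHB, the beta subunit of luteinizing hormone, at 4.28 to 4.90, and neither was called. TSHB, GPHA2 and GPHB5 were not called either. FSHB rose between 48 h (3.04 and 3.03) and 96 h (3.70 and 3.52), with adjusted p = 0.014, a change at the height of the lower quartile, and was lower again at 144 h (2.98 and 3.28). The call at 96 h was lost without either 48 h array and without replicate 1 of 96 h.

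Of the G proteins and adenylyl cyclases, which relay the signal of the receptor, 12 of 22 were measured. GNAS, the stimulatory G protein that LHCGR couples to, stood at 9.72 and 9.86 at 0 h, 9.80 and 9.85 at 48 h, 9.75 and 9.78 at 96 h and 9.92 and 9.87 at 144 h. All 8 arrays were within this narrow range, and no difference was called. The 96 h difference was -0.06 ± 0.11 (SE, adjusted p = 0.72), beside -5.10 for the receptor. In the first 48 h 5 genes of the list rose and 2 fell, 58.3% called against 30.0% of all features. To 96 h 2 rose and 4 fell, 50.0% against 29.4%.

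Among the cyclases, ADCY3 stood at 5.95 and 5.99, then 6.62 and 6.44, then 4.86 and 4.82, and last 4.88 and 5.88. It fell between 48 h and 96 h by 1.69 ± 0.27 (SE, adjusted p = 0.0025), after no call in the first 48 h. ADCY8 rose from 3.27 and 3.29 to 5.69 and 5.95 at 48 h (adjusted p = 0.0028) and fell to 3.62 and 3.29 at 96 h (adjusted p = 0.0044), but at 144 h its arrays lay apart at 4.65 and 6.26. ADCY9 fell both times, by 0.82 and then by 0.57, the latter -0.36 and not called on its other feature. ADCY2 rose at 96 h from 2.69 and 2.87 to 3.70 and 3.54, and fell to 2.64 and 2.57 at 144 h (adjusted p = 0.017). Its 48 h and 144 h values lay below the lower quartile.

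The inhibitory G protein genes moved apart. GNAI3 rose by 1.08 in the first 48 h (adjusted p = 0.00047) and by 1.01 to 96 h (adjusted p = 0.00083), and then fell by 1.03 to 144 h. GNAI1 rose by 1.72 in the first 48 h and fell by 0.57 to 96 h (adjusted p = 0.023), while a feature listed under several symbols that include GNAI1 gave 0.26 and 0.18, neither called. GNA12 rose by 0.91 in the first 48 h (adjusted p = 0.00051) and was not called later. Leaving out 1 array ended the 96 h calls of ADCY2, ADCY9 and GNAI1.

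Downstream of cyclic AMP, 15 of 24 genes of the protein kinase A group were measured. In the first 48 h 2 rose, 4 fell and 9 were not called, where 30.0% of all features were called. To 96 h 3 rose, 6 fell and 6 were not called, where 29.4% of all features were called. PRKACA, a catalytic subunit of the kinase, stood at 7.19 and 7.39, then 7.45 and 7.36, then 7.71 and 7.66, and last 7.60 and 7.996, and was not called in any step. PRKAR2A, a regulatory subunit, rose by 0.94 in the first 48 h (adjusted p = 0.00077). AKAP7, which anchors the kinase, fell in the same step from 6.72 and 6.79 to 3.60 and 3.68, a log2 difference of -3.12 ± 0.13 (SE, adjusted p = 2.6e-06), 1 step before LHCGR.

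The coactivators CRTC1 and CRTC2, which carry the cyclic AMP signal to CREB, fell together at 96 h. CRTC1 fell from 6.08 and 6.01 to 5.27 and 5.13 (adjusted p = 0.0025) and stood at 5.69 and 6.01 at 144 h. CRTC2 fell from 7.67 and 7.79 to 6.98 and 7.01 (adjusted p = 0.012) and stood at 7.61 and 8.01 at 144 h. Both rose again between 96 h and 144 h, CRTC1 by 0.65 (adjusted p = 0.012) and CRTC2 by 0.81 (adjusted p = 0.011), whereas LHCGR stayed low; at 96 h the ribosomal genes moved and came back as well. PLCB3, a phospholipase that some LH receptor signalling uses, rose by 0.83 at 96 h (adjusted p = 0.0089), and PLCB4 fell by 0.77 on one feature and gave 0.33 on another. Leaving out 1 array ended the 96 h calls of CRTC2 and PLCB3 in some cases, and the 144 h rises of CRTC1 and CRTC2 likewise.

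The group that shuts the signal off held arrestins, receptor kinases, regulators of G protein signalling and phosphodiesterases. Of its 36 symbols 24 were measured, and ADRBK1 and ADRBK2, which were not, are earlier symbols of the measured GRK2 and GRK3. In the first 48 h 5 rose and 6 fell, 45.8% called against 30.0% of all features. To 96 h 4 rose and 9 fell, 54.2% against 29.4%. RGS2, which speeds the shut-off of G proteins, stood at 9.09 and 9.10 at 0 h, 7.21 and 7.26 at 48 h, 4.22 and 4.17 at 96 h and 3.99 and 4.55 at 144 h. It fell by 3.03 ± 0.17 (SE, adjusted p = 2.6e-05) between 48 h and 96 h, an 8.19-fold lower intensity, but it had already fallen by 1.86 before 48 h (adjusted p = 0.00012).

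RGS4 fell by 2.37 in the first 48 h and by 0.95 to 96 h. RGS5 rose from 7.53 and 7.92 to 10.03 and 9.86 at 48 h, then fell to 8.72 and 8.60 at 96 h and 6.86 and 7.31 at 144 h, and each step was called. ARRB1, beta-arrestin 1, which uncouples activated receptors, fell from 4.65 and 5.01 to 3.29 and 3.19 at 96 h (adjusted p = 0.0015). GRK3, a kinase of activated receptors, rose from 5.61 and 5.68 to 6.70 and 6.64 in the same step (adjusted p = 0.0011). The arrestin and the receptor kinase thus went opposite ways in the step in which LHCGR was lost. Between 96 h and 144 h ARRB1 rose by 0.91 (adjusted p = 0.025) and GRK3 fell by 0.74 (adjusted p = 0.0071). Neither was called at 144 h against 48 h (adjusted p = 0.13 and 0.31), whereas LHCGR stayed low.

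Phosphodiesterases end the signal by breaking down cyclic AMP. PDE3A stood at 2.82 and 3.05 at 0 h, 5.67 and 5.59 at 48 h, 6.90 and 6.83 at 96 h and 7.75 and 8.19 at 144 h. It rose in every step, by 2.69 (adjusted p = 1.2e-05), 1.24 (adjusted p = 0.00091) and 1.10 (adjusted p = 0.0025). PDE7B fell by 4.01 ± 0.13 (SE, adjusted p = 9.8e-07) in the first 48 h, from 8.95 and 8.87 to 4.93 and 4.87. CYTH2, an exchange factor for the small G protein ARF6 that acts in desensitization of the LH receptor, fell by 0.98 at 96 h (adjusted p = 0.00056). Leaving out 1 array ended the 96 h call of RGS4.

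Proteins known to bind the LHCGR mRNA or its promoter formed a list of 21 genes, of which 13 were measured. In the first 48 h, while LHCGR was kept, 3 rose and 8 fell, 84.6% called against 30.0% of all features. To 96 h 6 fell and the remaining 7 were not called, 46.2% called against 29.4%. At 144 h against 48 h 2 were lower and the remaining 11 were not called, 15.4% called against 8.64%.

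MVK, mevalonate kinase, which binds the LHCGR mRNA, stood at 6.26 and 6.48 at 0 h, 6.46 and 6.52 at 48 h, 6.68 and 6.67 at 96 h and 6.82 and 6.68 at 144 h. Its 96 h difference of 0.18 ± 0.12 (SE, adjusted p = 0.3) was not called, and neither was any other step. SP1, which activates the LHCGR promoter, fell from 8.51 and 8.66 to 7.94 and 7.92 in the first 48 h (adjusted p = 0.0035) and stood at 8.04 and 7.88 at 96 h. NR2F6, an orphan nuclear receptor that represses the promoter, fell by 0.60 in the first 48 h (adjusted p = 0.026), and NR2F2, a nuclear receptor of the same family, rose by 0.63 (adjusted p = 0.027). Neither was called at 96 h. MVK, SP1, NR2F6 and NR2F2 were thus uncalled in the step in which LHCGR was lost.

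The members that fell at 96 h included transcription factors of steroid-making and granulosa cells. SP4, a relative of SP1, fell by 1.43 in the first 48 h and from 6.20 and 6.28 to 5.26 and 5.08 at 96 h (adjusted p = 0.00054). GATA6, a GATA factor of steroid-making cells, fell from 10.25 and 10.26 to 9.13 and 9.32 (adjusted p = 0.00079). NR5A2, the liver receptor homolog that granulosa cells need for ovulation, fell from 7.62 and 7.55 to 6.06 and 6.07 (adjusted p = 0.0043) after 9.37 and 9.41 at 0 h. These 3 had already fallen in the first 48 h, before LHCGR did.

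NR5A1, steroidogenic factor 1, fell from 7.94 and 7.93 to 6.84 and 6.94 (adjusted p = 0.0011), and its other feature gave -0.26. FOXO1, a factor that insulin and gonadotropin signals keep out of the nucleus, fell from 10.85 and 10.72 to 9.83 and 9.90 (adjusted p = 0.0032), and its other feature gave -0.64. Between 96 h and 144 h NR5A1 rose by 0.95 on the first feature (adjusted p = 0.0028), to 7.64 and 8.02, but its other feature gave -0.14 (adjusted p = 0.44), so the features disagreed. DNMT1, the maintenance DNA methyltransferase, fell by 1.10 in the first 48 h and was not called after. SP3, NR2F1, HDAC1, HDAC2, SIN3A, GATA4 and DNMT3A lacked a named feature. The calls of NR2F2, NR2F6, FOXO1 and NR5A1 in the first 48 h were lost in some of the analyses that left out 1 array.

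**Figure D3:**
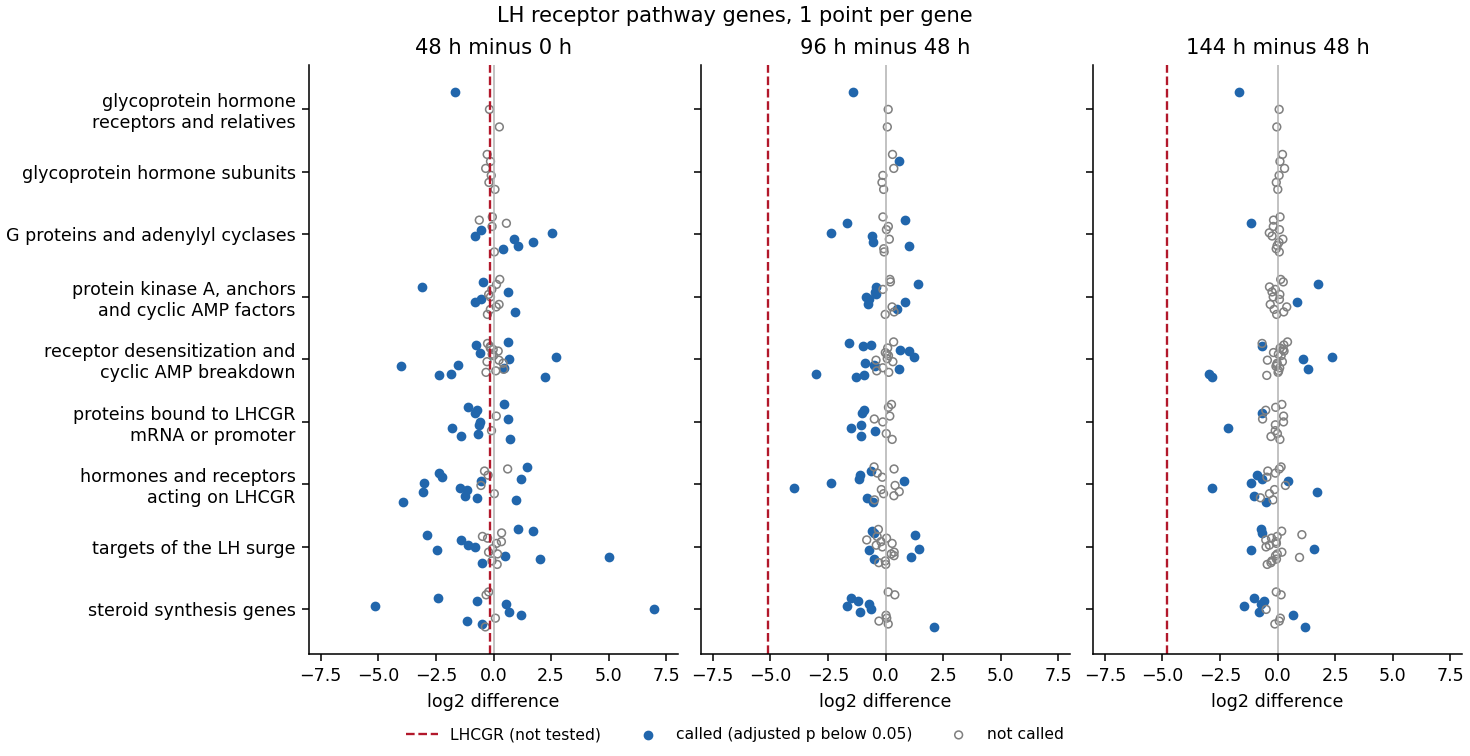
Log2 differences of the measured genes of 9 LH receptor pathway lists (1 point per gene, vertical offsets only separate points) for 48 h minus 0 h, 96 h minus 48 h and 144 h minus 48 h; filled points were called at adjusted p below 0.05 in limma, open points were not, and the dashed line is LHCGR, which was not tested. At 96 h and 144 h LHCGR, which was selected for its fall, lies to the left of every pathway gene, at -5.10 and -4.80. At 48 h it lies near 0, at -0.15.

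Hormones and receptors that act on LHCGR in granulosa cells were measured for 18 of 22 genes. Of these 3 were higher and 10 lower in the first 48 h, 72.2% called against 30.0% of all features. To 96 h 1 was higher and 7 lower, 44.4% against 29.4%. FST, follistatin, which binds activin and so limits its action, stood at 11.16 and 11.31 at 0 h, 9.86 and 9.70 at 48 h, 5.83 and 5.78 at 96 h and 6.51 and 7.32 at 144 h. It fell by 1.45 in the first 48 h (adjusted p = 0.0022) and by 3.98 ± 0.23 (SE, adjusted p = 2.9e-05) to 96 h, a 15.8-fold lower intensity. Between 96 h and 144 h it rose by 1.11 (adjusted p = 0.012), a call lost without either 96 h array.

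ESR1, the estrogen receptor alpha, stood at 9.35 and 9.52, then 6.28 and 6.56, then 3.83 and 4.27, and last 5.03 and 5.47. It fell by 3.02 (adjusted p = 2.2e-05) and then by 2.37 (adjusted p = 0.00013), and its other features gave 96 h differences from -0.47 to -1.50. AMHR2, the receptor of anti-Müllerian hormone, was not called in the first 48 h and fell from 6.43 and 6.33 to 5.20 and 5.31 at 96 h (adjusted p = 0.00054), so its step, although smaller, came at the same time as that of LHCGR. BMPR1B, a receptor for bone morphogenetic proteins, rose from 10.16 and 10.07 to 11.21 and 11.37 at 48 h and stood at 10.18 and 10.09 at 96 h, with both steps called. Its other feature rose by 1.69 in the first 48 h, and its 96 h difference of -0.44 was not called (adjusted p = 0.052).

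IGF1, a growth factor that works with follicle stimulating hormone in granulosa cells, fell from 10.15 and 10.16 to 7.16 and 7.02 in the first 48 h (adjusted p = 0.0001). It was not called at 96 h and stood at 9.31 and 8.29 at 144 h, higher than at 48 h (adjusted p = 0.0078, lost without either 48 h array). TGFBR3, the co-receptor betaglycan, fell by 3.92 ± 0.11 (SE, adjusted p = 4.6e-07) in the first 48 h and by 0.54 to 96 h, the latter call lost without replicate 1 of 48 h or of 96 h. The hormone AMH fell from 5.43 and 5.63 to 3.12 and 3.22 by 48 h (adjusted p = 2.2e-05), where it reached the lower quartile. These falls came while LHCGR was kept. BMPR2 was the gene of the list that rose at 96 h, by 0.78 (adjusted p = 0.00086).

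GDF9 and BMP15, growth factors of the oocyte, belong to the same list. GDF9 fell by 1.13 in the first 48 h (adjusted p = 0.00031) and BMP15 by 2.22 (adjusted p = 9.5e-05), and neither was called later. Among 8 measured oocyte markers 7 fell in the first 48 h, 87.5% called against 30.0% of all features. The 96 h differences of the 8 ran from -0.18 to 0.30. Their summed level, the log2 of the added intensities, was 8.35 to 8.52 at 0 h and 6.67 to 6.89 on the later arrays. LHCGR differed by -0.15 in the step in which the oocyte genes fell.

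Markers of other cells moved over the steps as well. The summed level of the 12 granulosa markers was 13.74 to 13.78 at 0 h, 12.85 to 12.87 at 48 h, 12.52 to 12.53 at 96 h and 12.31 to 12.32 at 144 h. Most of the decline of this sum came before LHCGR was lost, but bright genes weigh most in it. Among them were GJA1, with means of 11.51 at 48 h and 11.32 at 96 h, and HSD3B1, which rose by 6.96 in the first 48 h. The median difference of the 12 markers was -0.95 in the first 48 h and -0.49 from 48 h to 96 h. In the first 48 h 2 of these 12 rose, 7 fell and 3 were not called, where 30.0% of all features were called. At 96 h 6 of these 12 fell and the other 6 were not called, 50.0% called against 29.4% of all features. The summed level of 6 theca markers was 8.69 to 8.70, then 11.26 to 11.43, then 12.01 to 12.10, and last 12.43 to 12.54. At 96 h 1 of the 6 rose, 16.7% called against 29.4% of all features. The theca sum was carried by ACTA2, an actin of contractile cells, and DCN, a matrix proteoglycan. CYP17A1, the defining androgen synthesis enzyme of theca cells, stood at 2.49 to 3.15 on all arrays, and INSL3 fell in the first 48 h and was not called later.

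Luteal markers moved in the step as well, with 7 measured without LHCGR. In the first 48 h 3 of these markers rose and 2 fell, 71.4% called against 30.0% of all features. To 96 h 1 of them rose and 3 fell, 57.1% against 29.4%. Their summed level was 11.25 to 11.26 at 0 h, 12.68 to 12.70 at 48 h, 11.98 to 12.00 at 96 h and 12.27 to 12.35 at 144 h. Those that fell at 96 h were TIMP1 and, with values given in their own groups, HSD3B1 and PTGFR. OXT, the oxytocin gene, rose from 2.63 and 2.63 to 3.07 and 3.28, around the lower quartile, a call lost in some of the analyses that left out 1 array.

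The 6 leukocyte markers summed to 6.68 to 6.81 at 0 h, 7.24 to 7.34 at 48 h, 7.55 to 7.68 at 96 h and 7.16 to 7.36 at 144 h. LYZ, one of them, disagreed between its features at 96 h, at 0.59 and -1.75. The 5 endothelial markers summed to between 6.13 and 6.62 on all arrays. Whether a shift among cell types had a part in the LHCGR difference was not tested.

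Among 28 measured membrane receptors of granulosa cells other than LHCGR, 5 rose and 12 fell in the first 48 h, and 6 rose and 11 fell to 96 h. At 144 h against 48 h 6 were higher and 7 lower. The shares called were 60.7%, 60.7% and 46.4%, against 30.0%, 29.4% and 8.64% of all features. The median 96 h difference of the receptors was -0.14, and that of all features was 0.0094. The largest falls after LHCGR were those of PTGFR, at -1.66, PGRMC1, at -1.34, and NPR3, at -1.18.

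PTGFR, the prostaglandin F2 alpha receptor through which the corpus luteum regresses, stood at 7.23 and 6.99 at 0 h, 10.53 and 10.63 at 48 h, 8.94 and 8.90 at 96 h and 8.79 and 8.74 at 144 h. It rose by 3.47 ± 0.12 (SE, adjusted p = 1e-06) and then fell by 1.66 ± 0.12 (SE, adjusted p = 6.3e-05), but stayed above its 0 h level. PGRMC1, a progesterone-binding membrane protein, rose from 9.54 and 8.90 to 9.86 and 10.28 and fell to 8.70 and 8.76 at 96 h (adjusted p = 0.0048). NPR3, the natriuretic peptide clearance receptor, fell from 11.03 and 10.91 to 8.61 and 8.59, and then to 7.50 and 7.34 (adjusted p = 0.027). At 144 h NPR3 lay apart at 6.71 and 7.93.

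ADIPOR2, an adiponectin receptor, resembled LHCGR up to 96 h but not beyond. It stood at 9.84 and 9.94, then 9.76 and 9.58, then 8.47 and 8.51, and last 9.93 and 9.63. It fell by 1.18 at 96 h (adjusted p = 0.0005) and rose by 1.29 to 144 h (adjusted p = 0.00058). PRLR, the prolactin receptor, fell by 0.72 (adjusted p = 0.038) and by 0.81 (adjusted p = 0.024), and each of these calls was lost in some of the analyses that left out 1 array, as were the 96 h call of NPR3 and the 48 h call of PGRMC1.

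Receptors also rose in the step. EDNRA, an endothelin receptor, fell from 9.37 and 9.28 to 6.42 and 6.28 in the first 48 h and then rose to 7.99 and 7.89 (adjusted p = 8.6e-05). EDNRB did the same on a smaller scale, from 8.14 and 8.12 to 5.60 and 5.86 and then to 6.60 and 6.66 (adjusted p = 0.0011). PTGER2, a prostaglandin E2 receptor that LH induces in granulosa cells, was not called in the first 48 h and rose from 3.94 and 4.31 to 5.43 and 5.68 at 96 h (adjusted p = 0.00044). The loss at 96 h was therefore not shared by all membrane receptors of the list.

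**Figure D4:**
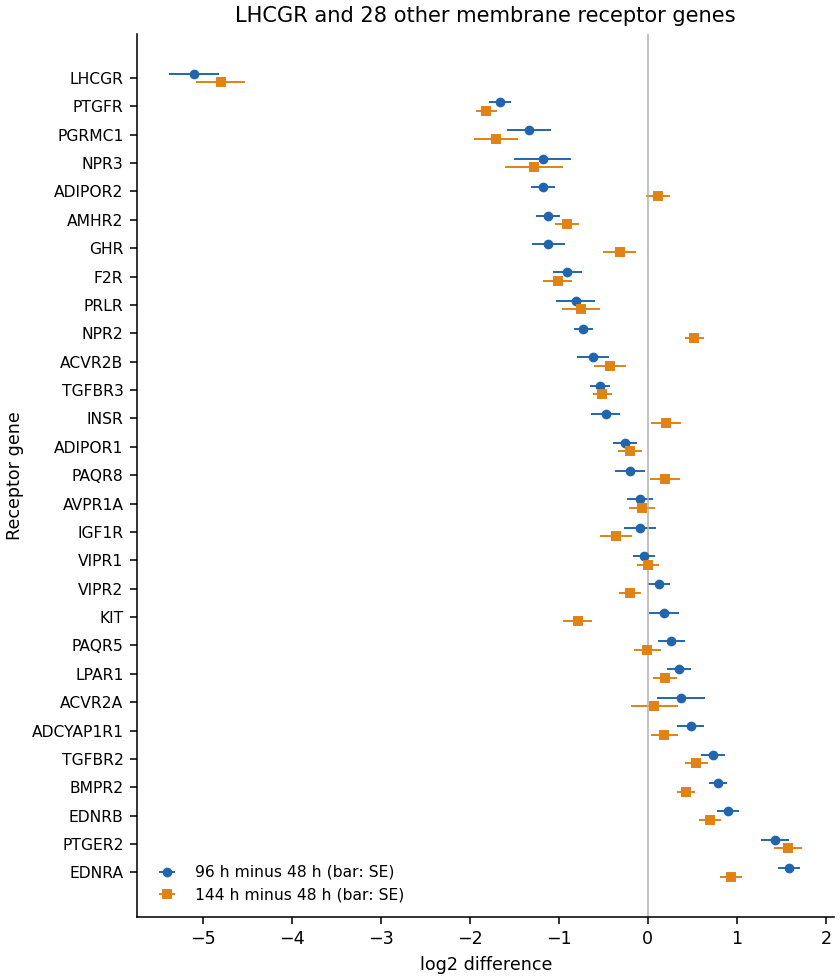
Log2 differences from 48 h of LHCGR and 28 other membrane receptor genes at 96 h (blue circles) and 144 h (orange squares), with bars for the standard error and genes in order of the 96 h difference. LHCGR lies at -5.10 and -4.80, PTGFR follows at -1.66 and -1.82, and EDNRA and PTGER2 lie highest at 96 h, at 1.59 and 1.43.

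Genes that the LH surge turns on in granulosa cells were measured for 21 of 36 listed symbols, among which SHAS2 and HAS2 are counted apart. In the first 48 h 5 rose and 6 fell, 52.4% called against 30.0% of all features. To 96 h 3 rose and 4 fell, 33.3% against 29.4%, so this share was near that of all features. SHAS2, the file's symbol for a hyaluronan synthase, rose from 2.56 and 2.44, below the lower quartile, to 7.49 and 7.52 at 48 h (adjusted p = 7.8e-06), and stood at 8.61 and 8.63 at 96 h. ADAMTS1, a protease that LH and progesterone induce before ovulation, rose by 1.73 in the first 48 h (adjusted p = 3.4e-05) and fell by 0.60 to 96 h. TIMP1, an inhibitor of metalloproteinases, rose by 2.03 in the first 48 h (adjusted p = 1.2e-05) and fell to 96 h.

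PTGES, a prostaglandin E synthase, fell by 2.46 in the first 48 h (adjusted p = 1.1e-05) and by 0.72 to 96 h, with -0.34 on its other feature. EGR1, an early response factor, fell by 1.39 in the first 48 h (adjusted p = 0.013, lost in some of the analyses that left out 1 array). BTC, betacellulin, an epidermal growth factor-like ligand, fell by 2.88 and then rose by 1.29 (adjusted p = 0.016). The other EGF-like ligands AREG and EREG and the expansion genes PTGS2, PTX3 and TNFAIP6, named after their values were seen, stood at 3.40 or below on all 8 arrays, around or below the lower quartile, and among them AREG was called at 96 h, at -0.50. The 96 h calls of ADAMTS1, TIMP1, PTGES, BTC and SHAS2 were lost in some of the analyses that left out 1 array.

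Steroid synthesis genes under LH control were measured for 13 of 21 members, without STAR, CYP11A1 and CYP19A1, which had no named feature. In the first 48 h 4 rose and 5 fell, 69.2% called against 30.0% of all features. To 96 h 1 rose and 6 fell, 53.8% against 29.4%. HSD3B1, which makes progesterone from pregnenolone, stood at 3.62 and 3.17 at 0 h, 10.42 and 10.29 at 48 h, 9.77 and 9.69 at 96 h and 9.81 and 9.91 at 144 h. It rose in the first 48 h by 6.96 ± 0.16 (SE, adjusted p = 3.5e-07) and was 0.63 lower at 96 h (adjusted p = 0.019, lost without either 48 h or 96 h array), a small change beside that of LHCGR.

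HSD17B1, the enzyme that activates estrogen in granulosa cells, went the other way. It stood at 10.78 and 10.90, then 5.60 and 5.76, then 4.15 and 3.87, and last 4.32 and 4.10. It fell by 5.16 ± 0.14 (SE, adjusted p = 4.4e-07) before 48 h and by 1.67 (adjusted p = 0.00013) to 96 h. Its main fall was thus about as large as that of LHCGR but came in the step before.

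FDXR, which feeds electrons to the mitochondrial steroid enzymes, fell by 2.39 and then by 1.49 (adjusted p = 9.4e-05). NPC1, which moves cholesterol out of lysosomes, rose by 0.68 (a call lost without either 0 h array) and fell by 1.11 (adjusted p = 0.0023), and HSD11B1, which regenerates active glucocorticoid, fell by 0.73 and by 1.19 (adjusted p = 0.00063). STARD4, a cholesterol carrier, was the gene that rose at 96 h, from 4.75 and 4.92 to 6.99 and 6.90 (adjusted p = 0.0013). At 144 h its arrays lay apart, at 6.57 and 5.47. Hence LHCGR was still high on the arrays where HSD3B1 had risen and HSD17B1 had fallen.

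Genes next to LHCGR on its chromosome were taken from the gene order of Sscrofa11.1, the 5 nearest with a named feature on each side. FSHR and GTF2A1L, the immediate neighbours, lacked a named feature, so the nearest measured genes were STON1, the second gene on one side, and CHAC2, the third on the other. In the first 48 h 5 of these 10 were called, against 30.0% of all features, with ERLEC1, STON1 and EPCAM higher and ASB3 and FBXO11 lower. At 96 h and at 144 h 2 were lower than at 48 h, ASB3 and EPCAM, against 29.4% and 8.64% of all features called in either direction.

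STON1, an endocytosis adaptor, stood at 4.08 and 3.89 at 0 h, 5.45 and 5.24 at 48 h, 5.51 and 5.23 at 96 h and 5.24 and 5.69 at 144 h. It rose by 1.36 in the first 48 h (adjusted p = 0.0008), and its 96 h difference was 0.02 ± 0.18 (SE, adjusted p = 0.94). CHAC2, which degrades glutathione, stood at 5.28 and 5.32 at 48 h and at 4.56 and 4.83 at 96 h, which was not called (adjusted p = 0.061). ASB3, a substrate adaptor of a ubiquitin ligase, fell by 0.60 at 96 h (adjusted p = 0.0047), and EPCAM, an epithelial adhesion protein, by 0.52 (adjusted p = 0.0083) around the lower quartile. None of the 10 neighbours came near the LHCGR difference of -5.10, but LHCGR was selected for that fall, at rank 3 of 27558 features. This contrast therefore follows from the selection, and a change shared by the region was not tested. The neighbour calls at 48 h numbered 2 without replicate 1 of 0 h, those at 96 h 1 without replicate 2 of 48 h, and those at 144 h 0 without replicate 2 of 48 h.

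**Figure D5:**
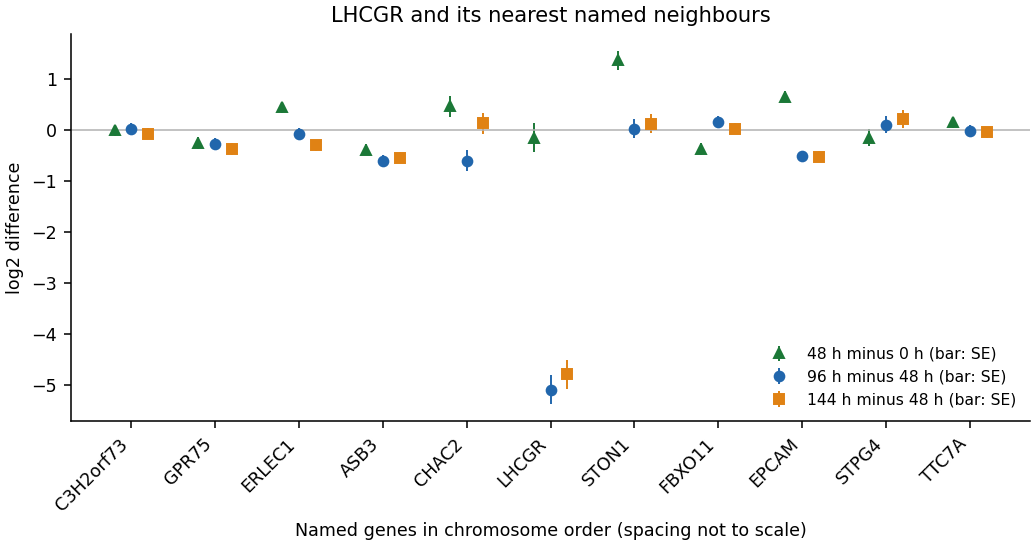
Log2 differences of LHCGR and its 10 nearest named neighbours, in chromosome order and not to scale, for 48 h minus 0 h (green triangles), 96 h minus 48 h (blue circles) and 144 h minus 48 h (orange squares), with bars for the standard error. LHCGR, which was selected for its fall, alone lies below -4 at 96 h and 144 h, and STON1 is highest at 48 h, at 1.36.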

How the data were processed

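Total RNA was hybridised to Affymetrix whole-transcript arrays. The deposited values are log2 intensities made with RMA (background correction, quantile normalization and probe summary), per the submitters' processing notes, and the version is not given in the sources used here; they were used without further scaling. Quantile normalization makes the arrays' distributions alike, so a shift of most genes one way would not show. Gene names follow the platform annotation held by GEO: 11735 features carried 1 symbol, 612 several entries and 15211 none in that table. Features with several entries were left unnamed, including 239 that repeat the same symbol and were named only in an alternative. Where a gene had several features, the one with the highest mean over the 8 arrays was used. All 27558 features entered 1 linear model in limma (version 3.58.1, under R 4.3.3) with 1 mean per time, 4 residual degrees of freedom and moderated variances, two-sided, with Benjamini-Hochberg adjustment over all features within each comparison. The median SE of a difference was 0.143, and the 2 arrays per time limit the precision. Fit and calls were tested on simulated data. LHCGR, the gene lists and the tests were chosen with earlier results of these data known. Named genes were the 10 most like and 5 most unlike LHCGR, all receptor and ligand genes, per list up to 6 genes with the largest 96 h and up to 4 with the largest 48 h difference, the neighbours, and a short set of regulators; other names are marked. Alternatives covered scaling, filtering, the model, the threshold, naming and each array left out. One more, which drops the arrays of 96 h, was chosen after seeing the data. No LHCGR sequence is printed.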

Additional observations from a re-analysis of the deposited data

How the results depend on the processing

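The LHCGR difference of 96 h from 48 h stayed negative in every alternative, from -5.35 to -4.85 when 1 array was left out. That of 144 h from 48 h ran from -5.25 to -4.35, and that of 144 h from 96 h from -0.15 to 0.76, so its sign rested on 1 array. NPR3, uncalled between 96 h and 144 h, ran from -0.70 to 0.51 when 1 array of 144 h was left out. At an adjusted p below 0.01 the pathway counts at 96 h were 8 higher and 26 lower, those at 144 h against 48 h were 6 and 13, the neighbours called at 48 h were 2 and at 144 h 0, and all features called were 5147 at 48 h, 4688 at 96 h and 1120 at 144 h against 48 h. With the fit to the 4 arrays compared, the 144 h counts were 4 higher, 9 lower, 0 neighbours and 825 features. Without the 96 h arrays they were 6 higher, 0 neighbours and 1576 features, and 3 neighbours were called at 48 h, as under median centring. With dim features left out, 1 neighbour was called at 144 h. Leaving out 1 array gave 17 to 31 higher pathway genes at 48 h, 6 to 22 higher and 24 to 49 lower at 96 h, and 4 to 14 higher and 11 to 31 lower at 144 h. Neighbours ran from 2 to 6, 1 to 3 and 0 to 2, and features from 5577 to 10258 at 48 h, 4198 to 10294 at 96 h and 1070 to 3879 at 144 h. Of the 10 genes most like LHCGR, 1 was kept under Spearman rho, 3 under root mean square distance, 5 with a span of at least 1, and 6 to 9 without 1 array. The cause of these shifts was not tested, apart from the fewer arrays or stricter threshold themselves. Of 243 calls among 508 comparisons of named genes, 148 held in every alternative. Deviations of arrays with the same replicate number correlated at r from -0.038 to 0.188 between times. With 2 arrays per time this cannot settle whether the numbers pair the arrays, and the labels do not say. With the replicate block 8077 features were called at 96 h, against 8089 without it. With 2 arrays per time, small differences cannot be separated from the spread.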
